A study of Mus musculus with 8 samples.

Results

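The 10 genes described here encode nuclear receptors of the liver. They are *Nr5a2* (LRH-1), *Nr1i2* (PXR), *Nr1i3* (CAR), *Nr1h2* and *Nr1h3* (LXRβ and LXRα), *Ppara* and *Pparg*, *Rxra*, and *Nr2f1* and *Nr2f2* (COUP-TFI and COUP-TFII). They were taken by symbol from a table of 23467 genes, and all 10 were found in it. Each has 1 value in each of 8 RNA-sequencing libraries of cultured mouse fetal liver cells, given in RPKM, which divides reads by gene length and library size. The main contrast was between control cells and cells labelled as lacking the Hippo pathway kinases *Lats1* and *Lats2*, which restrain the transcriptional co-activators YAP and TAZ.

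Nuclear receptors are transcription factors, most of which change their activity when a small lipid-soluble molecule enters a pocket of the protein. PXR, CAR, the LXRs and the PPARs bind DNA as partners of an RXR, whereas LRH-1 binds as a single molecule. In liver cells they adjust bile acid, cholesterol, fatty acid and drug metabolism to the molecules that reach the cell.

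Hepatoblasts, the bipotent precursors of hepatocytes and biliary epithelial cells (BECs), were taken from B6;129 mixed livers of E14.5 embryos and grown on collagen-coated plates (iHBs). Part of the cultures was given 12.5 ng/ml oncostatin M to form hepatocytes (iHPs), for 5 days according to the labels, although the methods of the study give a longer time. Others were kept on Matrigel for 14 days to form BECs (iBECs). Control cells were wild type, with 1 library in each of the 3 stages. The genotype of the other cells was *Lats1*-/-;*Lats2*f/fl;*Alb-cre* (L1L2_Alb), with 1 library of iHBs, 2 of iHPs and 2 of iBECs. By this genotype, the *Lats1* alleles are null in every cell type, and *Lats2* is to be deleted only where the albumin promoter drives Cre, that is in cells of the hepatoblast lineage. The culture medium of the hepatoblasts held dexamethasone, insulin and hepatocyte and epidermal growth factors.

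The libraries held 18436865 to 33229075 reads. Whether any of these libraries share an embryo or a culture is not stated, so the spread between libraries may be technical. No control stage was repeated. The p-values for genotype and stage therefore rest on the spread between repeated L1L2_Alb libraries and on differences of the genotype effect between stages. *Lats1* RNA was not lower in the libraries labelled L1L2_Alb (log2 difference 0.44, adjusted p = 0.460 from limma). *Lats2* RNA rose in them (log2 difference 0.90, adjusted p = 0.0312 from limma). A value for a whole gene does not separate deleted from remaining exons, so the deletion could not be checked from these values. The study itself reports reduced LATS1/2 expression in its L1L2_Alb cells. Of 6 hepatocyte markers *Alb*, *Ttr* and *Serpina1a* fell in the libraries labelled L1L2_Alb, and *Apoa1* had a log2 difference of 0.65 (adjusted p = 0.350 from limma). Of 6 biliary markers the keratins *Krt7* and *Krt19* rose and *Spp1* fell. The red cell markers summed to 2.55 to 107.0 RPKM in controls and 1.57 to 21.97 RPKM in the libraries labelled L1L2_Alb. The biliary markers did not set the libraries labelled iBEC apart from iHBs in 1 direction. Of the 6, 1 was called higher and 1 lower, with a median log2 difference of -1.08. *Krt7* fell (log2 -2.13, adjusted p = 0.0108 from limma), from 399.6 RPKM in control iHBs to 62.3 RPKM in control iBECs. *Spp1* rose, and so did the hepatocyte markers *Alb* and *Tat* (log2 3.99, 2.37 and 4.64, adjusted p = 0.00193, 0.0300 and 0.0127 from limma). *Apoa1* had a log2 difference of -0.40 between iBECs and iHBs (adjusted p = 0.630 from limma).

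Of the 10 receptors, 9 reached a mean of 1 RPKM and were tested for a difference between genotypes over the 3 stages, on the log2(RPKM + 1) scale. *Nr5a2*, *Nr1i2* and *Rxra* fell in the libraries labelled L1L2_Alb, and none of the 9 rose. These 3 of 9 compare with 9.57% of all 13421 genes tested that were called in either direction, 3.37% lower and 6.2% higher. At an unadjusted p under 0.05 there were 5 of 9, beside 26.3% of all tested genes. By direction alone, 5 receptors (*Nr5a2*, *Nr1i2*, *Nr1h3*, *Ppara* and *Rxra*) were below the control of their stage in 5 of 5 libraries labelled L1L2_Alb, as were 10.1% of all tested genes. *Nr2f2* was above it in 5 of 5, as were 22.9% of all tested genes, and the other 4 receptors were on both sides. The median log2 difference of the 9 tested receptors was -0.72, and that of all tested genes was 0.06, or -0.05 after upper-quartile scaling of the libraries. Among all genes 832 were called higher and 452 lower, and with that scaling 579 higher and 640 lower.

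**Figure D1:**
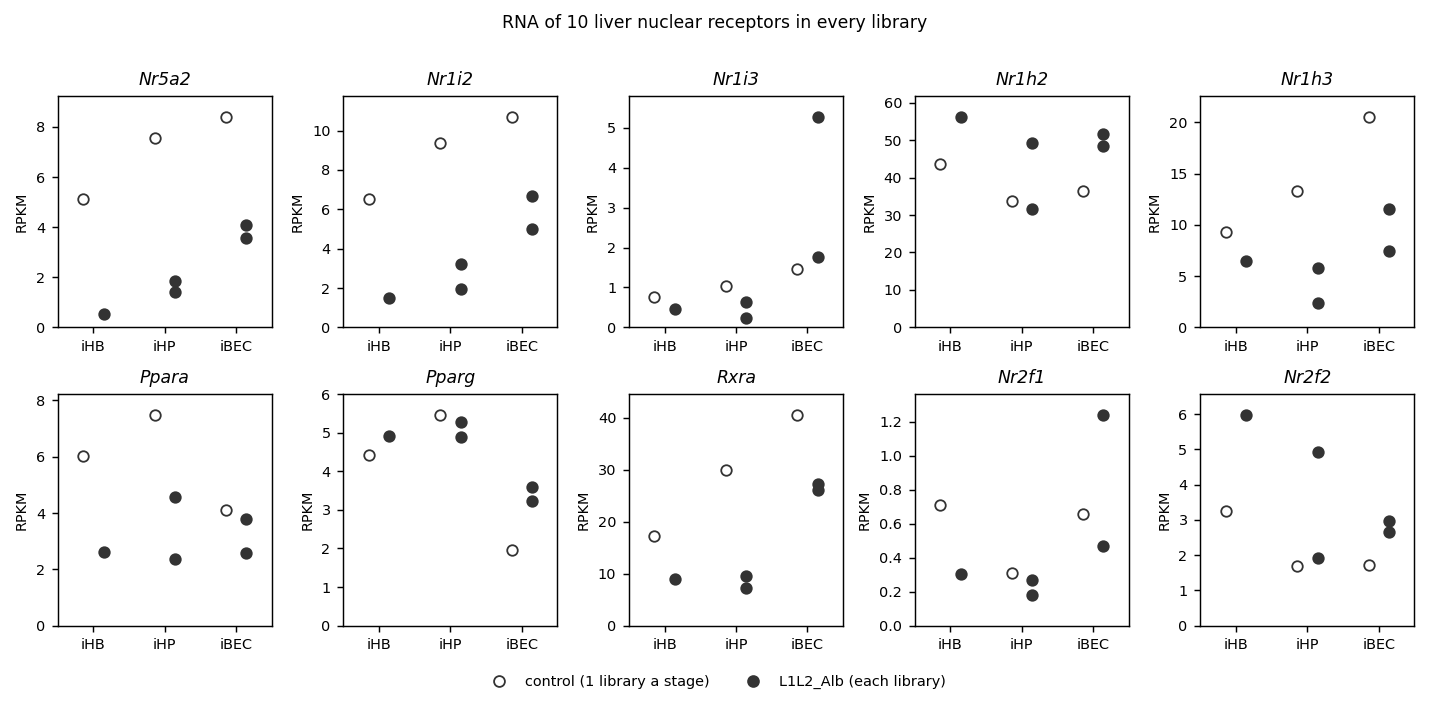
RNA of the 10 receptors in RPKM (vertical axes, linear, each from 0) by culture stage (horizontal axes), with open circles for the 1 control library of a stage and filled circles for each library labelled L1L2_Alb. *Nr5a2* has all 5 filled circles below all 3 open circles, *Nr1i2*, *Nr1h3*, *Ppara* and *Rxra* have them below the open circle of their stage, and *Nr2f2* has them above it.

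*Nr5a2* encodes LRH-1, which acts in bile acid synthesis and in early development and is part of the network of hepatic transcription factors. Its RNA was at 5.11, 7.54 and 8.41 RPKM in control iHBs, iHPs and iBECs. In the libraries labelled L1L2_Alb it was at 0.550 RPKM in iHBs, at 1.40 and 1.85 RPKM in iHPs, and at 4.08 and 3.59 RPKM in iBECs. All 5 of these values lay below all 3 control values, a separation seen in 3.7% of all tested genes. *Nr5a2* was the one receptor of the 10 with it, and none had all 5 above all 3 controls, as 9.18% of genes did. The L1L2_Alb level was 10.8% of the control level in iHBs, 18.6% and 24.5% in iHPs, and 48.5% and 42.7% in iBECs. Fitted over the 3 stages, the log2 difference was -1.51 (SE 0.239, adjusted p = 0.00904 from limma). The adjusted p was 0.0621 without either library of the iHBs and 0.0824 without the control library of the iHPs. In bulk RNA, fewer cells that express a receptor and less receptor RNA per cell cannot be told apart. Beside this difference, the summed level of the 6 hepatocyte markers was 8389 to 16472 RPKM in controls and 7701 to 12499 RPKM in the libraries labelled L1L2_Alb, with 3 of 6 called lower and a median log2 difference of -1.83. *Apoa1* alone was at 2451, 4249 and 4404 RPKM in control iHBs, iHPs and iBECs and at 2889 to 8670 RPKM in the libraries labelled L1L2_Alb, a large part of that sum. The part of these cells in the receptor differences was not tested.

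The promoters of the 10 receptors were searched for short motifs, because YAP acts through the TEAD factors and many nuclear receptors bind copies of one half-site. RefSeq (GRCm38.p6) gave 16 promoters for all 10 genes, each from 250 bases before to 50 bases after the transcription start, read on both strands. The submitters' processing notes name another build, mm8, for the expression table. The TEAD motif GGAATG was in 14.7% of 32851 mouse promoters and in 1 of the 16, the one at the second start site of *Nr5a2*. The half-site AGGTCA was in 16.3% of all promoters and in 4 of the 16, which belong to *Nr5a2*, *Pparg* and *Rxra*. A pair of half-sites 1 base apart, the element read by RXR with a PPAR, was in 0.0396% of promoters, and the longer motif CAAGGTCA of LRH-1, which contains the half-site, was in 1.56%. Neither was in any of the 16. The *Nr5a2* matches lie on chromosome 1, minus strand, at chr1:136953674-136953697 (TEAD, 58 bases before the second start) and chr1:136960498-136960521 (half-site, 64 bases before the first start). They are shown 5′ to 3′ on the strand of the gene, with the motif in capitals.
*Nr5a2* TEAD motif: tcacctgatGGAATGttcaagtgg
*Nr5a2* half-site: gtttacagcAGGTCAtacatgctg
A match describes letters in this window and no binding was measured here.

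*Nr1i2* encodes PXR, which senses bile acids, steroids and drugs and turns on genes of drug clearance. It was at 6.52, 9.38 and 10.7 RPKM in control iHBs, iHPs and iBECs. The libraries labelled L1L2_Alb held 1.52 RPKM in iHBs, 1.95 and 3.23 RPKM in iHPs, and 6.66 and 5.00 RPKM in iBECs. Each was below the control of its stage, while 1 iBEC library labelled L1L2_Alb was level with the control iHBs, so the genotypes overlapped once the stages were pooled. The log2 difference was -1.28 (SE 0.245, adjusted p = 0.0176 from limma). It did not pass without either library of the iHBs (adjusted p = 0.104 each), without the control iHP library (0.156), or with all expressed genes in the fit (0.0565).

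*Nr1i3* encodes CAR, the relative of PXR that responds to phenobarbital-like compounds. It was low in every control library, at 0.757 RPKM in iHBs, 1.05 RPKM in iHPs and 1.46 RPKM in iBECs. With the L1L2_Alb label it was at 0.456 RPKM in iHBs and at 0.631 and 0.227 RPKM in iHPs, all below control, and at 5.27 and 1.76 RPKM in iBECs, both above control. The lowest of these values stood for about 7 reads at a typical transcript length, which is a rough estimate. Over the stages the log2 difference was 0.01 (SE 0.36, adjusted p = 0.992 from limma), and its sign turned with the pseudocount, with upper-quartile scaling and without the control iBEC library. CAR made up 10.4%, 10.03% and 11.98% of the summed PXR and CAR RNA in control iHBs, iHPs and iBECs. With the L1L2_Alb label this share was 23.1% in iHBs, 24.5% and 6.57% in iHPs, and 44.2% and 26.1% in iBECs, above the control in 4 of 5 libraries. *Nr1i3* overlaps *Tomm40l* on the other strand, and the kit does not mark the strand, so reads of both genes cannot be told apart where they overlap. *Tomm40l* ranged from 7.52 to 14.1 RPKM and had a log2 difference of 0.10 (adjusted p = 0.802 from limma).

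Genes known to respond to PXR and CAR moved in both directions. Of 14 listed, 12 were tested, 3 above 0 and 9 below, and the median log2 difference was -0.58. Of the 12, 1 rose and 2 fell, beside 6.2% and 3.37% of all tested genes. *Cyp3a11*, the classic PXR target that oxidizes drugs and steroids, was at 3.75, 8.80 and 10.03 RPKM in control iHBs, iHPs and iBECs. In the libraries labelled L1L2_Alb it was at 1.26 RPKM in iHBs, 1.93 and 0.229 RPKM in iHPs, and 2.92 and 1.84 RPKM in iBECs. It fell by 1.78 on the log2 scale (adjusted p = 0.0202 from limma), and its relative *Cyp3a13* fell by 1.28 (adjusted p = 0.0339 from limma). *Aldh1a1*, a retinaldehyde dehydrogenase that is also active outside these pathways, rose by 2.56 (adjusted p = 0.00490 from limma), from 11.2 to 82.6 RPKM over the controls to 116.7 to 495.9 RPKM over the libraries labelled L1L2_Alb.

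*Nr1h2* and *Nr1h3* encode the LXRs, which sense oxidized cholesterol and drive cholesterol export and fatty acid synthesis. *Nr1h2* is made in most tissues and *Nr1h3* mainly in liver, fat and macrophages. *Nr1h2* was the most abundant of the 10 receptors in 7 of 8 libraries, at 43.5, 33.9 and 36.5 RPKM in control iHBs, iHPs and iBECs. Its level in the libraries labelled L1L2_Alb was 56.2 RPKM in iHBs, 31.5 and 49.2 RPKM in iHPs, and 51.6 and 48.5 RPKM in iBECs. It was above control in 4 of 5 libraries, with a log2 difference of 0.34 (SE 0.187, adjusted p = 0.302 from limma).

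*Nr1h3* was at 9.34, 13.4 and 20.6 RPKM in control iHBs, iHPs and iBECs. The libraries labelled L1L2_Alb held 6.46 RPKM in iHBs, 5.80 and 2.37 RPKM in iHPs, and 7.46 and 11.6 RPKM in iBECs. All were below the control of their stage, and the 2 iHP libraries differed more from each other than those of *Nr5a2* did. The log2 difference was -1.09 (SE 0.308), which did not pass over all genes (unadjusted p = 0.00714, adjusted p = 0.0623 from limma). LXRα made up 17.7%, 28.3% and 36.1% of the summed LXR RNA in control iHBs, iHPs and iBECs. Its share in the libraries labelled L1L2_Alb was 10.3% in iHBs, 15.5% and 4.60% in iHPs, and 12.6% and 19.3% in iBECs, below the control of the stage each time. The summed LXR RNA itself was 47.2 to 57.0 RPKM in controls and 37.3 to 62.7 RPKM in the libraries labelled L1L2_Alb. The macrophage markers, of a cell type that also makes LXRα, summed to 1137 to 2045 RPKM in controls and 661.4 to 2686 RPKM in the libraries labelled L1L2_Alb, with 0 of 6 called by limma and 1 of 6 at an unadjusted p under 0.05. Their part in the *Nr1h3* values was not tested.

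Of 11 LXR target genes, all tested, 3 were above 0 and 8 below, with a median log2 difference of -0.38. Of the 11, 1 fell and none rose, beside 3.37% and 6.2% of all tested genes. *Scd1*, the desaturase that makes monounsaturated fatty acids, was at 22.9, 53.3 and 190.3 RPKM in control iHBs, iHPs and iBECs and at 16.1 to 84.0 RPKM in the libraries labelled L1L2_Alb, and fell by 1.05 on the log2 scale (adjusted p = 0.0292 from limma). *Scd1* and the sterol transporters *Abcg5* and *Abcg8* rose in iBECs against iHBs, by 2.57, 2.05 and 1.72 (adjusted p = 0.00275, 0.0181 and 0.0365 from limma).

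**Figure D2:**
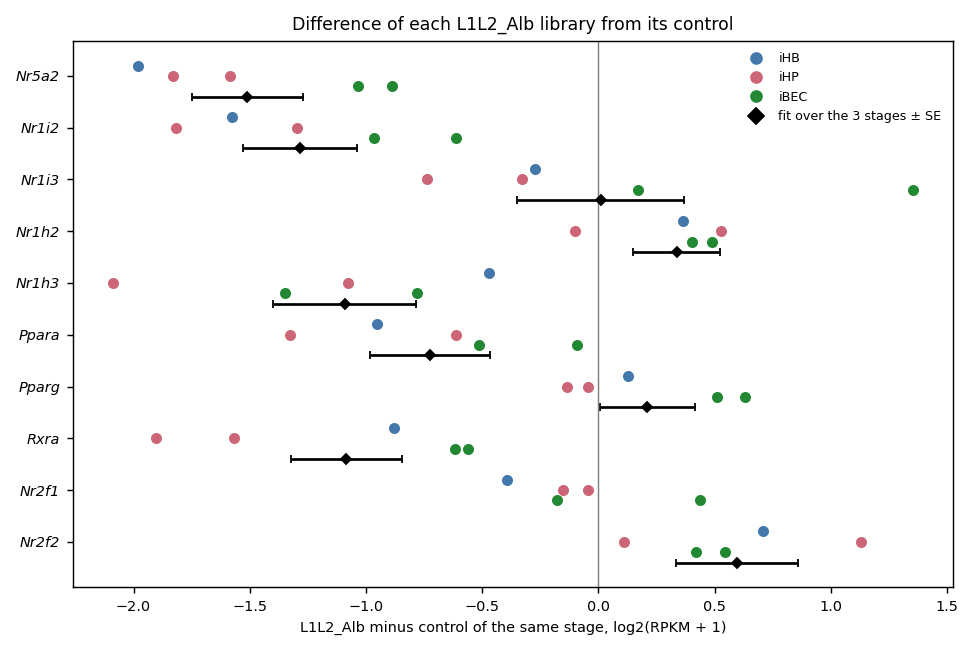
Difference of each library labelled L1L2_Alb from the control of its stage on the log2(RPKM + 1) scale (horizontal axis) for the 10 receptors (rows), coloured by stage, with black diamonds for the limma fit over the 3 stages ± SE. *Nr2f1* was not fitted. *Nr5a2* (-1.51), *Nr1i2* (-1.28) and *Rxra* (-1.08) are the receptors whose fit passed the threshold.

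*Ppara* encodes the fatty acid sensor that turns on fatty acid oxidation in fasted liver. It was at 6.03, 7.49 and 4.11 RPKM in control iHBs, iHPs and iBECs. In the libraries labelled L1L2_Alb it was at 2.63 RPKM in iHBs, 2.38 and 4.56 RPKM in iHPs, and 3.79 and 2.57 RPKM in iBECs. Each was below the control of its stage, by a margin that was small in 1 iBEC library, at 92.2% of control. The log2 difference was -0.72 (SE 0.257, adjusted p = 0.118 from limma), at an unadjusted p of 0.0222.

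*Pparg* encodes the receptor best known for fat cell formation and lipid storage. It was at 4.42, 5.46 and 1.97 RPKM in control iHBs, iHPs and iBECs, and at 4.92 RPKM in iHBs, 5.27 and 4.89 RPKM in iHPs, and 3.60 and 3.24 RPKM in iBECs labelled L1L2_Alb. The genotypes lay close together in iHBs and iHPs, and both iBEC libraries labelled L1L2_Alb were above their control. The log2 difference over the stages was 0.21 (SE 0.204, adjusted p = 0.574 from limma). Of 4 fat cell markers, *Adipoq*, *Plin1* and *Lep* were at 0 to 0.0870 RPKM, whereas *Fabp4*, which macrophages and endothelium also express, was at 50.3 to 192.0 RPKM in controls and 16.8 to 230.9 RPKM in the libraries labelled L1L2_Alb. *Fabp4* had a log2 difference of -0.94 between genotypes (adjusted p = 0.292 from limma) and rose by 2.72 in iBECs against iHBs (adjusted p = 0.0463 from limma). The part of such cells in the *Pparg* values was not tested. Both *Pparg* promoters with a half-site lie on chromosome 6, plus strand, at chr6:115361107-115361130 (28 bases before the first start) and chr6:115362331-115362354 (9 bases before the second start), shown 5′ to 3′ with the half-site in capitals.
*Pparg* first start: cgccgcctcAGGTCAgagtcgccc
*Pparg* second start: gacgcgaggAGGTCAagaaggggc

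The third member of the family, *Ppard*, which is made in most tissues, ranged from 6.74 to 16.2 RPKM and had a log2 difference of 0.06 (adjusted p = 0.907 from limma). *Ppara* made up 30.8%, 35.9% and 22.6% of the PPAR RNA in control iHBs, iHPs and iBECs. Its share in the libraries labelled L1L2_Alb was 17.5% in iHBs, 16.5% and 22.1% in iHPs, and 19.02% and 11.7% in iBECs, below the control of the stage in all 5. The share of *Ppard* was above it in 4 of 5, between 46.8% and 73.7% against 37.9% to 66.5% in controls.

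Targets of PPARα moved both ways. Of 17 PPARα target genes 15 were tested, 5 above 0 and 10 below, with a median log2 difference of -0.36. Of the 15, 2 rose and 2 fell, beside 6.2% and 3.37% of all tested genes. *Pdk4*, the kinase that shuts off glucose oxidation, and *Vnn1*, a pantetheinase, rose by 1.81 and 1.82 on the log2 scale (adjusted p = 0.0160 and 0.0248 from limma). *Creb3l3*, a liver transcription factor of lipid metabolism, had a log2 difference of -1.22 and *Fabp1*, the liver fatty acid binding protein, of -2.47, and both fell (adjusted p = 0.0174 and 0.0368 from limma). *Pdk4* was at 29.4, 23.3 and 4.67 RPKM in control iHBs, iHPs and iBECs, and at 150.1 RPKM in iHBs, 112.5 and 38.7 RPKM in iHPs, and 20.4 and 16.8 RPKM in iBECs labelled L1L2_Alb. Of 9 PPARγ targets 6 were tested, and all 6 had a log2 difference below 0, with a median of -0.81. *Cd36*, a fatty acid transporter, was the 1 called and fell by 1.60 (adjusted p = 0.0390 from limma).

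*Rxra* encodes the partner with which PXR, CAR, the LXRs and the PPARs bind DNA. It was at 17.3, 30.01 and 40.6 RPKM in control iHBs, iHPs and iBECs. In the libraries labelled L1L2_Alb it was at 8.97 RPKM in iHBs, 7.30 and 9.47 RPKM in iHPs, and 26.1 and 27.2 RPKM in iBECs. Each was below the control of its stage, at 51.8% of it in iHBs, 24.3% and 31.6% in iHPs, and 64.3% and 67.1% in iBECs. These values rest on 709 to 7102 reads. The log2 difference was -1.08 (SE 0.240, adjusted p = 0.0295 from limma). The adjusted p was 0.238 without the control iHP library, 0.105 and 0.106 without the control or the L1L2_Alb iHB library, and 0.0515 and 0.0525 without the first L1L2_Alb iHP or the second L1L2_Alb iBEC library. It was 0.0663 with all expressed genes in the fit and 0.0623 with the 2 libraries of a condition averaged.

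The 2 half-sites of the *Rxra* promoter lie before its second start on chromosome 2, plus strand, at chr2:27709196-27709219 (87 bases before) and chr2:27709235-27709258 (48 bases before). The first is read on the other strand and so appears as its reverse complement, again 5′ to 3′ and in capitals.
*Rxra* upstream half-site: aaatgggtgTGACCTgagtaatgg
*Rxra* downstream half-site: tggcaggaaAGGTCAgtcactctc

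*Rxrb*, a partner receptor made in most tissues, was at 17.5 to 29.3 RPKM in controls and 18.5 to 24.6 RPKM in the libraries labelled L1L2_Alb (log2 difference 0.06, SE 0.181, adjusted p = 0.875 from limma). *Rxrg* was at or near 0. RXRα made up 37.1%, 58.8% and 69.9% of the RXR RNA in control iHBs, iHPs and iBECs, against 26.8% in iHBs, 28.2% and 30.2% in iHPs, and 52.7% and 53.3% in iBECs labelled L1L2_Alb. Its share was below the control of the stage in all 5. The summed RXR RNA was 46.7, 51.1 and 58.1 RPKM in control iHBs, iHPs and iBECs. It was 33.5 RPKM in iHBs, 25.8 and 31.4 RPKM in iHPs, and 49.5 and 51.1 RPKM in iBECs labelled L1L2_Alb, the iHPs being farthest from their control.

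**Figure D3:**
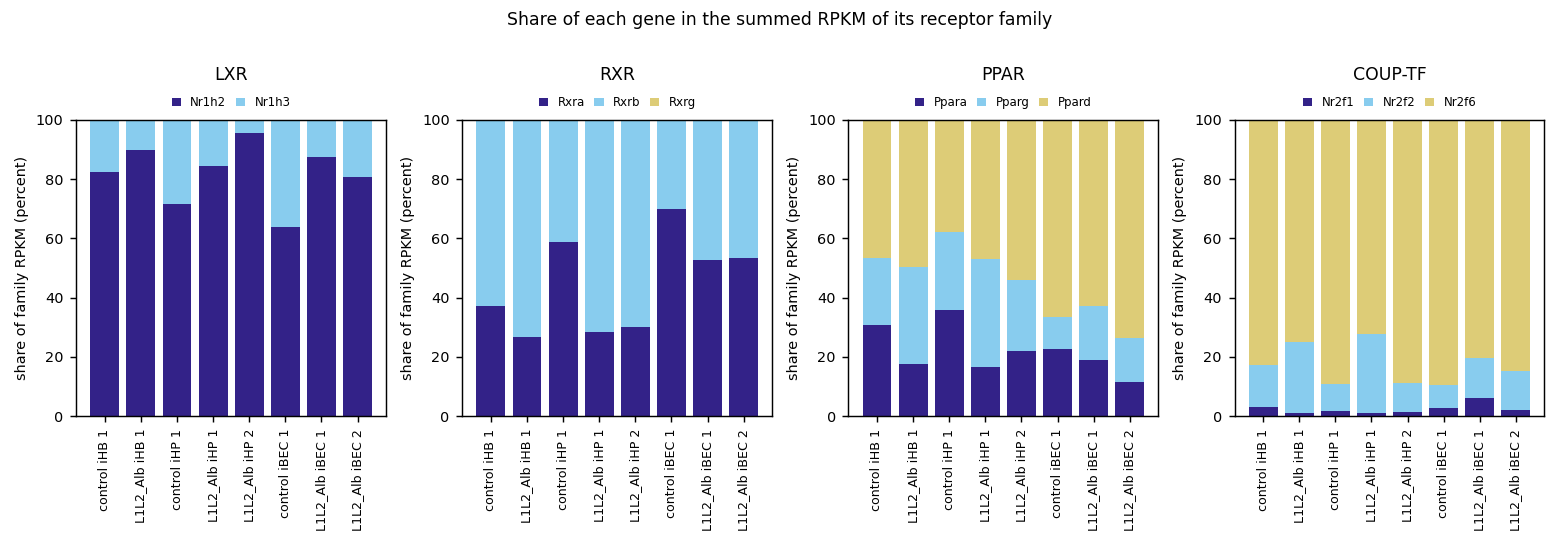
Share of each gene in the summed RPKM of its receptor family (vertical axes, percent from 0 to 100) in each of the 8 libraries (horizontal axes), for the LXR, RXR, PPAR and COUP-TF families, with 1 colour for each gene. *Rxra* takes 37.1% to 69.9% of its family in controls and 26.8% to 53.3% in libraries labelled L1L2_Alb, and *Nr2f6* takes most of the COUP-TF family in every library.

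The COUP-TFs are orphan receptors that mostly repress, and COUP-TFII is also a marker of venous endothelium and mesenchyme. *Nr2f2* was at 3.26, 1.70 and 1.73 RPKM in control iHBs, iHPs and iBECs. The libraries labelled L1L2_Alb held 5.98 RPKM in iHBs, 4.92 and 1.92 RPKM in iHPs, and 2.65 and 2.97 RPKM in iBECs. All were above the control of their stage, the second iHP library by the smallest margin. The log2 difference was 0.59 (SE 0.262, adjusted p = 0.196 from limma). *Nr2f1* was at 0.708, 0.308 and 0.656 RPKM in control iHBs, iHPs and iBECs, and at 0.301 RPKM in iHBs, 0.178 and 0.270 RPKM in iHPs, and 1.24 and 0.466 RPKM in iBECs labelled L1L2_Alb. These values stand for 8 to 78 reads, and with a mean under 1 RPKM the gene was not tested. *Nr2f6*, the third member, made up 72.3% to 89.4% of the COUP-TF RNA.

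Markers of such cells were read beside *Nr2f2*. The 8 mesenchymal markers summed to 2995 to 5408 RPKM in controls and 1982 to 4056 RPKM in the libraries labelled L1L2_Alb. Of 7 tested, *Vim* rose, none fell past the threshold, and 6 had values below 0. Their median log2 difference was -1.01. At an unadjusted p under 0.05 from limma there were 6 of 7, *Vim* among them, beside 26.3% of all tested genes. The 5 endothelial markers summed to 1.54 to 5.30 RPKM in controls and 1.73 to 4.39 RPKM in the libraries labelled L1L2_Alb, with the endothelial cadherin *Cdh5* at 0.163 to 0.538 RPKM. The 2 tested endothelial markers had opposite signs, *Kdr* with a log2 difference of 0.97 (adjusted p = 0.0542 from limma), above control in 5 of 5 libraries, and *Pecam1* with -1.17 (adjusted p = 0.0757 from limma). Their part in the *Nr2f2* values was not tested.

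The control libraries were next set against each other, without a test, since each stage had 1. Between control iHPs and control iHBs, 0 of the 10 receptors differed by 1 or more on the log2 scale, as did 1.93% of all tested genes upward and 1.65% downward. Between control iBECs and control iHBs, 2 receptors were higher by 1 or more, *Rxra* (1.18, or 2.34-fold) and *Nr1h3* (1.06, or 2.20-fold), against 4.46% of genes upward and 14.9% downward. From control iHPs to control iBECs *Pparg* was lower (log2 -1.12), a size reached downward by 8.98% of genes and upward by 3.6%. *Nr5a2*, *Nr1i2*, *Nr1i3*, *Nr1h3* and *Rxra* had the same order in controls, lowest in iHBs and highest in iBECs. How many of all tested genes had this order was not counted, so it is not read as a trait of these receptors. For *Nr1i3* it rests on low values, 0.757 to 1.46 RPKM.

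Over both genotypes, iBECs differed from iHBs in *Rxra*, which was the 1 receptor of 9 called and was higher by 1.41 (SE 0.299, adjusted p = 0.0321 from limma). Of all tested genes 5.72% were called, 2.94% higher and 2.78% lower, and 6 of 9 receptors had an unadjusted p under 0.05, beside 25% of all tested genes. *Nr5a2* and *Nr1i2* had log2 differences of 1.22 and 1.12 (SE 0.298 and 0.306, adjusted p = 0.0533 and 0.0770 from limma). They passed with *Rxra* under upper-quartile scaling (adjusted p = 0.0192 and 0.0336) and quantile normalization (0.0150 and 0.0305). The median of all tested genes in this comparison was -0.25, and 395 genes were called higher and 373 lower, or 511 and 183 after upper-quartile scaling. *Rxra* did not pass without the control iHB library (adjusted p = 0.239), the L1L2_Alb iHB library (0.252) or the first or second L1L2_Alb iBEC library (0.0863 and 0.0856). The comparison of iHPs with iHBs called 0 of 9 receptors and 0 of all genes by limma, with 0 receptors and 1158 genes at an unadjusted p under 0.05.

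The distance from control was also counted in each stage, without a test, over 1 library labelled L1L2_Alb in iHBs and 2 in iHPs and iBECs. A receptor was lower by 1 or more on the log2 scale in every L1L2_Alb library for 2 of 10 in iHBs (*Nr5a2* and *Nr1i2*), 4 of 10 in iHPs (*Nr5a2*, *Nr1i2*, *Nr1h3* and *Rxra*) and 0 of 10 in iBECs. Of all tested genes this held for 8.99%, 8.26% and 1.62%, a lower share in iBECs across the table too. None of the 10 was higher by 1 or more in every L1L2_Alb library of a stage, as were 5.6%, 4.64% and 4.19% of all genes in iHBs, iHPs and iBECs. Between L1L2_Alb iHBs and iBECs the mean *Nr5a2* level differed 6.97-fold, against 1.64-fold between the controls, and *Nr1i2* differed 3.83-fold against 1.64-fold. *Rxra* differed 2.97-fold against 2.34-fold, and *Nr1h3* less in L1L2_Alb cells than in controls, 1.47-fold against 2.20-fold. The test of a difference in the genotype effect between stages, with 2 residual degrees of freedom, called 0 of 9 receptors and 0 of 13421 genes by limma, with 0 receptors and 733 genes at an unadjusted p under 0.05. For *Nr5a2* its unadjusted p was 0.224 and for *Rxra* 0.122, with an adjusted p of 1.00 for each. The comparisons of a stage share 1 control library.

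Of 39 other nuclear receptors listed, all were in the table and 20 were tested. *Rarb*, a retinoic acid receptor, rose by 1.12 on the log2 scale (adjusted p = 0.0441 from limma). *Hnf4a*, a master regulator of hepatocyte genes, fell by 1.33 (adjusted p = 0.00373 from limma). *Hnf4a* was at 48.4, 64.4 and 99.5 RPKM in control iHBs, iHPs and iBECs and at 20.2 to 45.6 RPKM in the libraries labelled L1L2_Alb, and the bile acid receptor gene *Nr1h4* had a log2 difference of -0.76 (adjusted p = 0.105 from limma). *Nr0b2*, which encodes a repressor that LRH-1 and FXR induce, was at 0 to 1.51 RPKM. The median of these 20 was 0.05, against -0.72 for the 9. *Nr1h4* and *Hnf4a* were higher in iBECs than in iHBs, by 1.84 and 1.00 (adjusted p = 0.0163 and 0.0273 from limma).

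**Figure D4:**
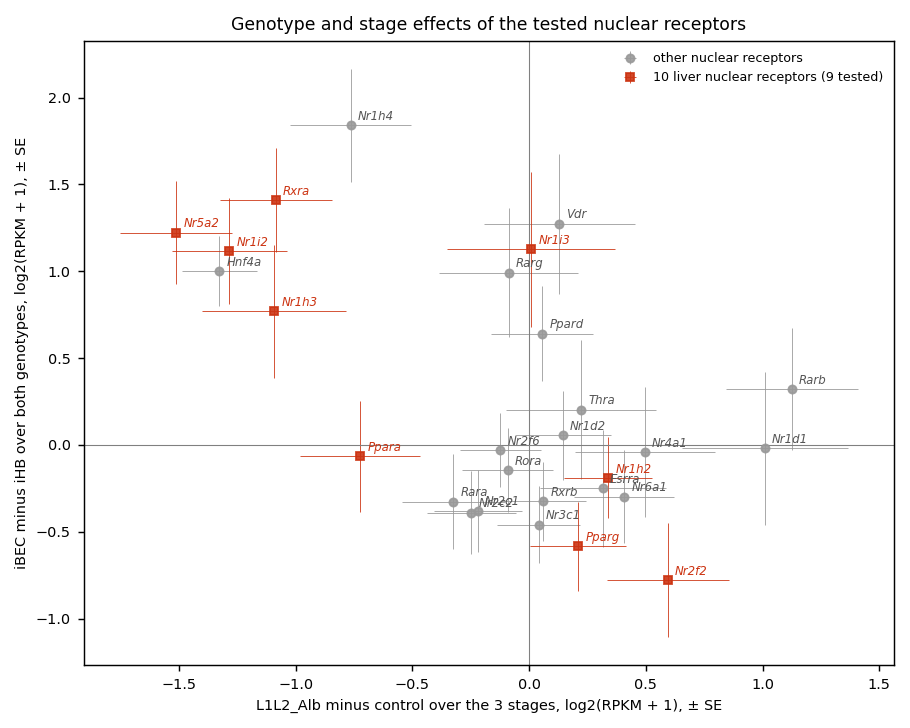
Fitted difference between genotypes (horizontal axis) and between iBECs and iHBs (vertical axis) on the log2(RPKM + 1) scale, each ± SE, for the 9 tested members of the set (squares) and 19 other nuclear receptors (circles). *Nr5a2*, *Nr1i2*, *Rxra* and *Nr1h3* lie at the upper left with *Hnf4a* and *Nr1h4*, while *Pparg* and *Nr2f2* lie at the lower right.

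Among 7 LRH-1 targets 4 were tested, with a median log2 difference of -0.47. The bile acid synthesis genes *Cyp7a1* and *Cyp8b1* had a mean under 1 RPKM and were not tested. Of 12 coregulators, the proteins through which these receptors act on transcription, 10 were tested and limma called 0 between genotypes, with 1 at an unadjusted p under 0.05 and a median log2 difference of -0.10.

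The profiles of the receptors over the 8 libraries were compared by the root-mean-square distance on the log2 scale, after each gene was centred on its own mean. The closest pair among the 10 was *Nr5a2* and *Nr1i2* (0.155), followed by *Nr1i2* and *Rxra* (0.312). The 3 genes nearest to *Nr5a2* included the apolipoprotein gene *Apoc1* (0.122) and *Cideb* (0.208), a lipid droplet gene. Those nearest to *Nr1i2* included *Cideb* (0.165) and the thiolase gene *Acaa2* (0.182), and nearest to *Rxra* were *Prodh2* (0.154), *Ifitm2* (0.180) and *Foxa3* (0.2003). *Cideb* stood in the first 2 of these lists.

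Nearest to the other receptors were *Atf5*, *Pcyt2* and *Aqp9* for *Nr1h3* (0.224 to 0.290), *Ppap2b*, *Eci2* and *Dennd2a* for *Ppara* (0.126 to 0.183), and *Tor1b*, *Sdr39u1* and *Rdx* for *Pparg* (0.111 to 0.113). The nearest genes were *Wnt2*, *Acacb* and *Arl4a* for *Nr1i3* (0.159 to 0.208), *Ctsf*, *Cnbd2* and *Yif1b* for *Nr1h2* (0.0752 to 0.0927), *0610038B21Rik*, *Trpm4* and *Alyref2* for *Nr2f1* (0.0821 to 0.114), and *Acvr1*, *Tgif1* and *Col9a3* for *Nr2f2* (0.1198 to 0.139). Genes that vary little over the libraries are near to many others, so these distances are read beside the SD of the receptor's own log2 profile, which was 0.28 for *Nr1h2* and *Nr2f1* and 0.85 for *Nr5a2*.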

How the data were processed

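The authors deposited 1 table with 1 value for each gene and library, which holds RPKM (or the same unit per fragment). The unit was inferred from the values, because values of 89.6% to 92.1% of short RNA genes, whose length is known, came to whole reads. This also gave the reads per library. The submitters' processing notes name Bowtie 0.12.2 and the build mm8, and libraries were made with a TruSeq v2 kit. The counting method and annotation are not given in the sources used here. Of 23471 entries, 4 of 2 repeated symbols were left out.

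Values were changed to log2(RPKM + 1), with a pseudocount of 1. The 13421 genes whose mean reached 1 RPKM entered a limma fit (version 3.58.1, R 4.3.3) on stage and genotype, moderated by eBayes with a mean-variance trend, with 4 residual degrees of freedom. Every adjusted p is from limma, two-sided, by Benjamini-Hochberg over all genes of its fit (13421 in the main one, fewer or more where the filter or a left-out library changed them), and 0.05 was the threshold. A moderated F test was used for a change of the genotype effect between stages. Single stages have 1 control library and were described without a test. No count model was run, because the values are not counts, and no scaling between libraries was applied. Reads were recovered as whole numbers, to within 0.01, for 3 receptors (*Nr1h2*, *Rxra* and *Nr2f1*). They were estimated from a GENCODE median transcript length for the others. Such estimates are rough, since the recovered length of *Rxra* was 5267 bases and its GENCODE median 2602.5 bases. Depth limits only the lowest values, and reads without molecular identifiers are not independent molecules.

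The 10 receptors, the gene lists and the markers were chosen with earlier results of these data known. All 10 receptors are named, with the 3 nearest genes of each. From each other list, genes past the threshold are named (at most 4), and *Hnf4a*, *Nr1h4*, *Nr0b2*, *Rxrb* and *Ppard* always. Results of 3 genes that this rule names are not reported here. *Tomm40l*, *Krt7*, *Krt19*, *Spp1*, *Alb*, *Tat*, *Apoa1*, *Kdr*, *Pecam1* and the untested *Adipoq*, *Plin1*, *Lep*, *Cdh5*, *Cyp7a1*, *Cyp8b1*, *Rxrg* and *Nr2f6* were named after their values were seen. The 17 alternatives covered the pseudocount, scaling, filter, trend, threshold, pooling of the 2 libraries of a condition, a replicate block and leaving out each library. The procedure was tested on simulated data. Promoter sequences are from RefSeq (GRCm38.p6), and positions are 1-based. Tables and figures were made with matplotlib 3.10.9, pandas 2.3.3 and numpy 2.4.6 in Python 3.11.15.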

Additional observations from a re-analysis of the deposited data

Results flagged for a closer look

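The mean difference between genotypes had opposite signs in 2 stages, in every library, for *Nr1i3* and *Pparg*. For *Nr1i3* it was -0.27 in iHBs and -0.53 in iHPs but 0.76 in iBECs, on the log2(RPKM + 1) scale, so that iBECs exceeded iHBs by 1.03 and iHPs by 1.29. The 2 iBEC libraries labelled L1L2_Alb were far apart, at 5.27 and 1.76 RPKM. The test of a difference between stages gave an unadjusted p of 0.267 for *Nr1i3* (adjusted p = 1.00 from limma), and no pair of stages was tested on its own.

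For *Pparg* the mean difference was 0.13 for iHBs and -0.09 for iHPs, against 0.57 for iBECs, so that iHPs stood -0.22 from iHBs and iBECs exceeded iHPs by 0.66. The test of a difference between stages gave an unadjusted p of 0.459 (adjusted p = 1.00 from limma), and here too no pair of stages was tested on its own.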

How the results depend on the processing

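The number of receptors called between genotypes was 3. It was 1 with no filter on low values, 1 with a replicate block, and 0 to 3 with 1 library left out, being 0 without the control iHB, the L1L2_Alb iHB or the control iHP library. At an adjusted p under 0.1 it was 4, *Nr1h3* being the fourth. The signs of the 3 called receptors held under every alternative that gave a value. At a threshold of 0.05 *Nr5a2* passed in 12 of 15 refits, *Nr1i2* in 11 of 16 and *Rxra* in 8 of 16, and *Nr1h3* in none (lowest adjusted p = 0.0511 from limma). The number called in iBECs against iHBs was 1. It was 3 at an adjusted p under 0.1, 3 with upper-quartile scaling, 3 with quantile normalization, 2 with eBayes without trend, 0 with no filter, 0 with the mean of the 2 libraries of a condition, 0 with the replicate block, and 0 to 3 with 1 library left out. The log2 difference of *Nr1i3*, 0.01, turned to -0.25 with a pseudocount of 0.1, -0.053 with upper-quartile scaling and -0.014 with the mean of libraries, and ranged from -0.42 to 0.32 with 1 library left out. The cause was not tested.

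The deviations of same-numbered L1L2_Alb libraries of iHPs and iBECs had a correlation of r = -0.02 across 13421 genes, which are not independent. With 2 libraries in each condition this is 1 contrast, so it cannot show whether the numbers pair the libraries. The replicate block took the 1284 genes called between genotypes to 599, and the adjusted p of *Nr1i2* and *Rxra* to 0.0524 and 0.0736. Other counts of genes called between genotypes that moved by more than 1.5 times were 2215 at an adjusted p under 0.1, 686 with no filter, 329 and 316 without the control or the L1L2_Alb iHB library, 205 without the control iHP library, 844 without the first L1L2_Alb iHP library and 792 without the second L1L2_Alb iBEC library. In iBECs against iHBs the 768 genes called became 1372 at an adjusted p under 0.1, 492 with no filter, 1747 without the second L1L2_Alb iHP library, 180 and 99 without the control or the L1L2_Alb iHB library, and 493 without the second L1L2_Alb iBEC library. In iHPs against iHBs the count of 0 became 12 at an adjusted p under 0.1, 3 with upper-quartile scaling, 4 with a mean of at least 5 RPKM, and 0 to 55 with 1 library left out. With 1 control library a stage, leaving out a control removes that stage from the comparison of genotypes. Leaving out the 1 L1L2_Alb iHB library does the same for iHBs. Both iHB refits therefore give the same log2 difference between genotypes (-1.34 for *Nr5a2*) and are not separate checks.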
